A study of Homo sapiens with 6 samples.

Results

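Histone genes were followed on expression arrays of MDA-MB-231 cells, an established estrogen receptor-negative human breast cancer line. Cells received a control siRNA (3 arrays) or an siRNA against LSD1 (3 arrays), with 2 transfections over 6 days before RNA was collected. LSD1, encoded by KDM1A, is a demethylase that acts on histone H3. The replicates are described as biological, and both groups are the same line and differ in the siRNA alone, so every result is for 1 line and 1 siRNA treatment. The genes were taken by symbol from the platform annotation: canonical histone genes (H1-1 to H1-6, H2AC, H2BC, H3C and H4C names) and variant histone genes (H1-10, H2AX, H2AZ, H2AJ, macroH2A and H3-3 names). Of 54675 probe sets, 41097 had exactly 1 gene symbol, and 81 of these, for 57 of 19775 genes, carried a histone name.

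Histones are the proteins around which DNA is wound, and a dividing cell must make a new set of them each time it copies its genome. The canonical genes lie in clusters and are called replication-dependent, because their mRNAs accumulate in S phase. Those mRNAs end in a stem-loop in place of a poly(A) tail, but some of these genes also give polyadenylated transcripts, which are known from cells that have left the cycle or differentiated. Replacement histones, such as H2A.Z, H3.3 and macroH2A, come from separate genes with ordinary polyadenylated mRNAs. H2A.X is counted with them here, although its RNA exists in both a stem-loop and a polyadenylated form. Standard labelling for such arrays starts from the poly(A) tail, so replication-dependent genes are seen mainly through tailed transcripts. The signals themselves do not show whether a transcript had a tail, and that was not measured.

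The 81 probe sets fell into 49 for 43 replication-dependent genes, 28 for 10 replacement genes, 3 for 3 pseudogenes and 1 for an antisense RNA, H1-10-AS1, which matched by name only. All 4 of the last kinds were below the filter on low signals. The filter asked for a mean log2 signal over the 40th percentile across probe sets, which is a signal of about 28.0. It left 26 replication-dependent and 7 replacement genes, 33 in all, to be tested. The other 24 genes had 28 probe sets with mean signals from 2.76 to 32.1, and their single values ran from 0.753 to 70.2. Genes of this kind that are not listed in the annotation with a symbol of their own were not analysed here.

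KDM1A had signals of 2540, 2493 and 2295 with control siRNA and 291, 184 and 228 with LSD1 siRNA, which was 9.58% of the control mean. The trimmed mean signal was 500.1 on all 6 arrays, so a common scaling is already in the values. The ratio of 3' to 5' signal of ACTB, a measure of RNA quality, was 1.74 on control array 1 and lay between 1.33 and 1.43 on the other 5. VIM (control mean 32798), CD44 (13093) and EGFR (4732) were bright, and the estrogen and progesterone receptor genes ESR1 (59.1) and PGR (60.7) were near the lower end. Among other genes of luminal cells KRT18 (16731), KRT8 (5380) and EPCAM (1658) were bright as well. ERBB2 (581), GATA3 (523) and CDH1 (163) were dimmer. Of these 11 genes, read for the identity of the line and all tested, 0 rose and 3 fell, EGFR (-0.25), KRT8 (-0.25) and KRT18 (-0.45). Of 12 leukocyte and blood markers, 7 passed the filter and 2 rose, LAPTM5 (log2 change 1.20) and LY96 (1.79). Their summed signal was 3514 to 3899 with control siRNA and 8490 to 8624 with LSD1 siRNA. PTPRC, LYZ and NKG7 were below the filter, and of the other markers above it CD3D (30.1 with control and 60.2 with LSD1 siRNA, log2 change 0.85), CD3E (-0.36), CD79A (-0.15), CD14 (0.05) and HBB (0.51) did not pass. The part of these markers in the histone values was not tested. Of 10 fibroblast and endothelial markers, 6 passed the filter and 0 passed the limma test, with no marker of these at an unadjusted p under 0.05 and summed signals of 744 to 893 and 695 to 855.

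Among the histone genes that passed the test, the replication-dependent ones were mostly higher with LSD1 siRNA and the replacement ones were lower. Of 26 replication-dependent genes tested, 10 rose and 2 fell, led by the H2B genes and by H4C8. Of 7 replacement genes tested, 5 fell and 0 rose, led by H2AX. That none rose depends on the probe set used for H2AJ. Its dim set did not pass, while its bright sets with the x suffix rose by 1.11 and 0.91 when tested singly. With the mean of all probe sets H2AJ rose by 0.67 (limma adjusted p = 0.000183). Across all 13822 genes tested with limma, 41.0% passed at an adjusted p of 0.05, 19.8% as higher and 21.3% as lower. The histone genes together had 10 higher and 7 lower of 33, a share of 51.5% in either direction beside the 41.0% of all genes. Their median log2 change was -0.18, against -0.02 for all genes tested, but it was -0.012 without control array 1, -0.05 with no filter and 0.39 with the filter at the 60th percentile. The median was 0.33 for the replication-dependent and -0.33 for the replacement genes. That of the replication-dependent genes was 0.09 without LSD1 siRNA array 3, 0.11 without LSD1 siRNA array 2, 0.19 without control array 3, 0.08 with no filter, 0.20 with a constant of 60, 0.80 at the 60th percentile and -0.20 without probe sets that have an x, s or a suffix. The 3 arrays of a group did not overlap with those of the other for 23 of the 33 (69.7%), against 50.4% of all genes, and for all 17 that passed. A log2 change here is on the scale of log2(signal + 15), which understates the change of dim genes.

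**Figure D1:**
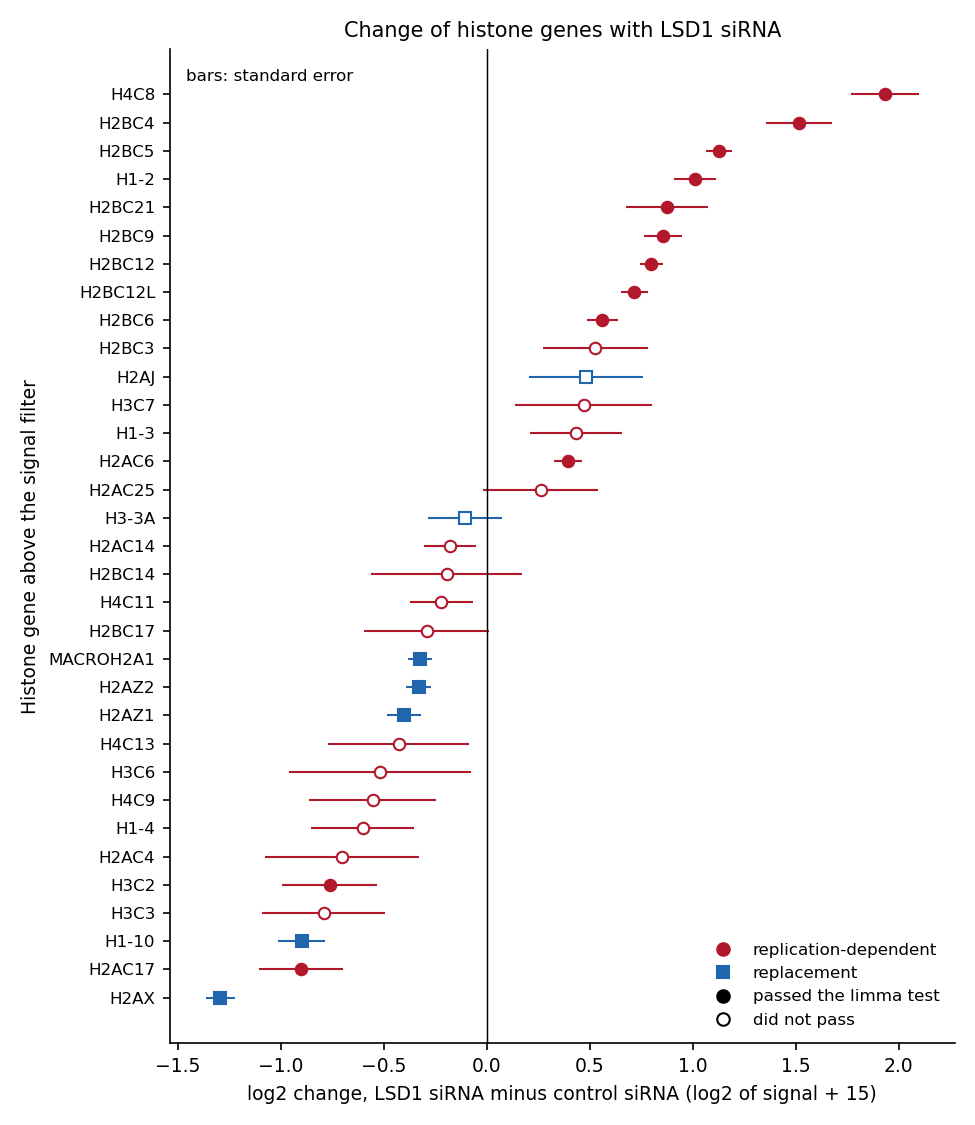
Log2 change (LSD1 siRNA minus control siRNA, on log2 of signal + 15) of the 33 histone genes above the filter, as points with the standard error as bars. Circles are replication-dependent and squares replacement genes, and filled symbols passed the limma test; H4C8 stands at 1.93 at the top and H2AX at -1.29 at the bottom.

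H2B genes made up most of the rises. Of 10 replication-dependent H2B genes tested, 7 rose and 0 fell, with a median log2 change of 0.76. Across all genes tested 19.8% rose and 21.3% fell. H2B pairs with H2A in the nucleosome. H2BC12, the brightest of them here, had signals of 4996, 5080 and 5235 on the control arrays and 8842, 9041 and 8768 on the LSD1 siRNA arrays. Each LSD1 siRNA array was well above every control array. The mean rose 1.74-fold, and the log2 change was 0.80 ± 0.06 (SE; limma adjusted p = 7.26e-07).

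H2BC4 had signals of 115, 81.7 and 89.0 with control siRNA and 288, 305 and 301 with LSD1 siRNA. The groups were far apart relative to their spread, and the log2 change was 1.52 ± 0.16 (SE; limma adjusted p = 1.70e-05). H2BC5 went from 1304, 1229 and 1252 to 2848, 2652 and 2822. Its groups did not overlap either, and its log2 change was 1.13 ± 0.06 (SE; limma adjusted p = 1.59e-07). H2BC21, from the histone cluster on chromosome 1, was dim, with 62.4, 76.6 and 56.8 on the control arrays and 129, 130 and 136 on the LSD1 siRNA arrays. Its log2 change was 0.88 ± 0.20 (SE; limma adjusted p = 0.00389).

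The other H2B rises were H2BC9 (0.85), H2BC12L (0.72) and H2BC6 (0.56), each with groups that did not overlap. H2BC3 (0.53), H2BC14 (-0.20) and H2BC17 (-0.29) did not pass, and their mean signals were 75.2, 43.8 and 40.4. H2BC5, H2BC6, H2BC9 and H2BC12L are read, among sets with 1 symbol, only by those with the x suffix, which marks possible cross-hybridisation, so these 4 can take signal from one another or from other H2B genes and are not 4 separate observations. H2BC12 and H2BC4 are read by probe sets without a suffix.

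The promoters of the H2B genes are shown because 7 of the 10 tested rose, beside 2 genes that fell. RefSeq windows (GRCh38.p14) of 300 bases, from 250 before to 50 after the start, were found for 50 of the 57 genes. The 250 bases before the start of H2BC4 (chr6:26123927-26124176, minus strand), H2BC12 (chr6:27146859-27147108, minus strand), H2AC17 (chr6:27893186-27893435, minus strand) and H2AX (chr11:119095466-119095715, minus strand) are given 5′ to 3′ on the strand of the gene. Capitals mark the octamer ATTTGCAT, the CCAAT box CCAAT, the TATA box TATAAA and the E2F motif TTTCGCGC or TTTGGCGC, searched on both strands. In H2BC12 the E2F match directly follows a CCAAT match and the upstream TATA matches overlap each other.
H2BC4: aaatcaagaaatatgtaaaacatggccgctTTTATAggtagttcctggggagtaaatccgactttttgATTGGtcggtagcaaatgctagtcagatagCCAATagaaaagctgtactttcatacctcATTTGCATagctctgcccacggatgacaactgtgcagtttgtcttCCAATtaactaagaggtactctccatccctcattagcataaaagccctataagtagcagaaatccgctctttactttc
H2BC12: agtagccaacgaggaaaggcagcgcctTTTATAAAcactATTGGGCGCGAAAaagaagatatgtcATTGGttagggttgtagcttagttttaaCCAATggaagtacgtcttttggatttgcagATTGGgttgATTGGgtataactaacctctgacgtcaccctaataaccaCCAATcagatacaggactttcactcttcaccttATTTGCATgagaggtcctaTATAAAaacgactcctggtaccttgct
H2AC17: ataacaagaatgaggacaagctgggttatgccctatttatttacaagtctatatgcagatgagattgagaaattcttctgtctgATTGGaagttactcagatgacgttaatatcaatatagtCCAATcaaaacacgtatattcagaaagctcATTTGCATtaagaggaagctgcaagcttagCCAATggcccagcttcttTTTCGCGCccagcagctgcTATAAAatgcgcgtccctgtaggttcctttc
H2AX: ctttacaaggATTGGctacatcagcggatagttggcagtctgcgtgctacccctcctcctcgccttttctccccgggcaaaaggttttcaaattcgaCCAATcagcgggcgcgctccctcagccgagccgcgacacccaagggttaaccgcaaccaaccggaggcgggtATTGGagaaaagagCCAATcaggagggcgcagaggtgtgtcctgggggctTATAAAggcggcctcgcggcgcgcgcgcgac

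The octamer, a site for OCT1 (POU2F1) known from H2B promoters, stood 46 bases before the start in H2BC12 and 123 in H2BC4. In H2AC17, which fell, it stood 98 bases before the start. It was in 10 of 13 replication-dependent H2B windows (76.9%), in 6 of 8 H2A windows (75.0%) and in 0 of 10 replacement windows, against 1.80% of 27305 windows of all genes. Among the H2B genes tested it was in 5 of the 6 that rose and have a window, and in all 3 that did not pass. The CCAAT box was in 84.0% of the histone windows and 35.7% of all windows, and the TATA box in 60% and 12%. These shares count matching letters on either strand anywhere in the window, whatever their distance from the start. In H2BC4 the only TATA match before the start is on the opposite strand, 220 bases away. The E2F motif was in 18% of the histone windows and 1.18% of all, and among the tested genes with a window it was in 1 of 9 that rose, in 1 of 7 that fell and in 4 of 16 that did not pass. H4C8, the largest rise, held none of the 4 motifs, which says only that these letters are not in that window.

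H2A and H2B genes of the clusters often lie head to head and share a promoter. Windows of 4 pairs overlapped on opposite strands. In the pair of H2BC4 and H2AC6 both rose, by 1.52 and 0.39. In the pair of H2AC17 and H2BC17 the first fell, by 0.90 on the log2 scale, and the second, at -0.29, did not pass. H2AC14 (-0.18) and H2BC14 (-0.20) also did not pass, and H2BC15 and H2AC15 were below the filter.

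H4C8, an H4 gene, had the largest change of any histone gene tested. Its signals were 55.8, 67.9 and 63.6 on the control arrays and 290, 256 and 295 on the LSD1 siRNA arrays. The lowest LSD1 siRNA value was above every control value. The mean was 4.49-fold higher, with a log2 change of 1.93 ± 0.17 (SE; limma adjusted p = 3.46e-06). A second probe set of H4C8, without a suffix, gave 1.80. The other H4 genes tested, H4C9 (-0.55), H4C13 (-0.43) and H4C11 (-0.22), did not pass. H4C11 had control signals of 425, 368 and 270, and it was at -0.40 without control array 3 (limma adjusted p = 0.0259) and at -0.08 without control array 1 (limma adjusted p = 0.709).

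H1-2, a linker histone gene, rose as well. It had signals of 830, 957 and 727 with control siRNA and 1804, 1731 and 1557 with LSD1 siRNA. The groups were apart by more than their spread, with a log2 change of 1.01 ± 0.10 (SE; limma adjusted p = 1.00e-05). The related linker genes H1-3 (0.43) and H1-4 (-0.60) did not pass. H1-4 had 71.0, 65.1 and 69.0 against 36.4, 41.4 and 42.3, so its groups did not overlap although its limma adjusted p was 0.0756, and it passed in the unmoderated test (0.00613) and without an intensity trend (0.00261). H2AC6 was the H2A gene that rose, from 1075, 1026 and 1090 to 1434, 1391 and 1382, a log2 change of 0.39 ± 0.07 (SE; limma adjusted p = 0.000538).

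**Figure D2:**
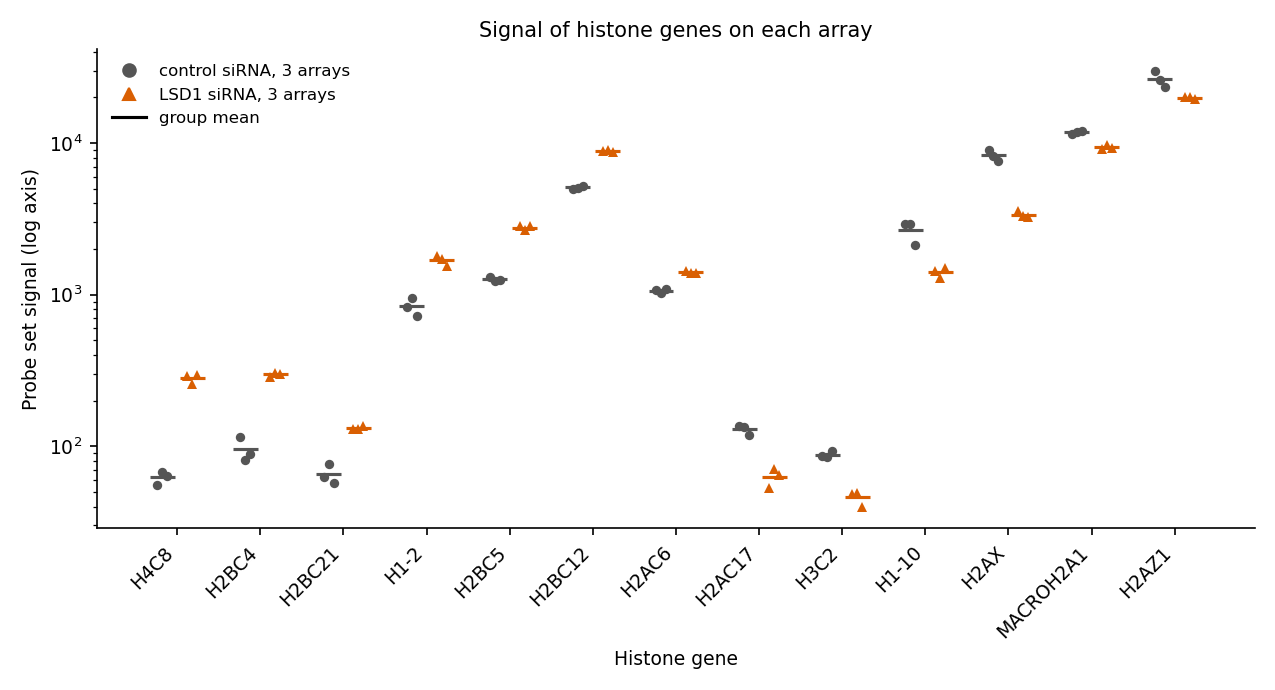
Probe set signal (log axis) of 13 histone genes on each of the 3 control siRNA arrays (grey circles) and 3 LSD1 siRNA arrays (orange triangles), with group means as lines. The genes from H4C8 to H2AC6 lie higher and those from H2AC17 to H2AZ1 lower with LSD1 siRNA, with no overlap between groups.

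The replication-dependent falls were H2AC17 and H3C2, both dim. H2AC17 had 137, 134 and 119 on the control arrays and 52.9, 71.0 and 64.6 on the LSD1 siRNA arrays. All control values were above all LSD1 siRNA values, with a log2 change of -0.90 ± 0.20 (SE; limma adjusted p = 0.00368). H3C2, a gene of canonical H3, had 86.7, 85.0 and 92.6 against 48.7, 49.0 and 39.9, a log2 change of -0.76 ± 0.23 (SE; limma adjusted p = 0.0196). Its limma adjusted p was 0.0543 without control array 3 and 0.0598 without LSD1 siRNA array 3. H3C3, another H3 gene, missed the threshold at -0.79 (limma adjusted p = 0.0518), at 0.0417 without control array 3 and at 0.209, with a change of -0.52, without control array 1. Of the 16 histone genes that did not pass, 13 had mean signals under 100, and the log2 changes of the 16 ran from -0.79 to 0.53.

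Of the replacement histones, H2AX had the largest fall. Its product is the H2A variant that is phosphorylated at DNA breaks, and its RNA exists in both a stem-loop and a polyadenylated form. Its signals were 8999, 8240 and 7651 with control siRNA and 3554, 3294 and 3259 with LSD1 siRNA. The groups were far apart, and the LSD1 siRNA mean was 40.6% of the control mean of 8297 ± 676 (SD, n = 3). The log2 change was -1.29 ± 0.07 (SE; limma adjusted p = 1.21e-07). H1-10, a linker histone gene outside the clusters, had 2929, 2937 and 2126 against 1441, 1290 and 1497. Control array 3 was nearest to the LSD1 siRNA arrays, and the groups did not overlap, with a log2 change of -0.90 ± 0.11 (SE; limma adjusted p = 6.60e-05).

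H2AZ1 and H2AZ2 encode the near-identical H2A.Z proteins, which mark gene starts. H2AZ1 had signals of 29898, 26108 and 23550 on the control arrays and 20234, 20036 and 19676 on the LSD1 siRNA arrays. The control arrays spread more than the others, but none reached down to them, and the log2 change was -0.40 ± 0.08 (SE; limma adjusted p = 0.00204). H2AZ2 had 9261, 8558 and 9446 against 7023, 7337 and 7289, a log2 change of -0.33 ± 0.06 (SE; limma adjusted p = 0.000901). MACROH2A1, which encodes an H2A with a large extra domain found on silent chromatin, had 11507, 11864 and 12050 against 9197, 9749 and 9345. Its groups were apart as well, with a log2 change of -0.32 ± 0.06 (SE; limma adjusted p = 0.000717).

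H3-3A and H2AJ did not pass. H3-3A, a gene of the replacement histone H3.3, had 628, 347 and 399 on the control arrays and 369, 444 and 426 on the LSD1 siRNA arrays. The groups overlapped, with a log2 change of -0.10 (limma adjusted p = 0.686), and without control array 1, the array with the high ACTB ratio, the value was 0.14. H2AJ, an H2A variant known to accumulate in senescent cells, was represented by a dim probe set with 67.0, 31.2 and 57.9 against 72.3, 74.9 and 80.8, a log2 change of 0.48 (limma adjusted p = 0.190). It was at 0.06 without control array 1, 0.23 without control array 2 and 0.21 without LSD1 siRNA array 3. MACROH2A2, H1-7 and H1-8 were below the filter.

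Genes read by several probe sets allowed a comparison within a gene. With each probe set tested on its own, 48 histone sets passed the filter, of which 14 were higher and 17 lower. Of all 27079 sets tested this way, 34.4% passed, 17.0% as higher and 17.4% as lower. Sets of the same gene share their transcripts and are not independent. All 3 tested sets of H2AX, both of H2AZ1, all 4 of H2AZ2 and all 5 tested sets of MACROH2A1 fell, over ranges of -1.29 to -0.71, -0.40 to -0.27, -0.57 to -0.33 and -0.55 to -0.32. Both sets of H2BC5 (1.13 and 1.30) and both of H4C8 rose.

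H2AJ was the gene whose sets differed. Its pair of x suffix sets was bright, with means of 2107 ± 230 and 2023 ± 189 with control siRNA and 4545 ± 447 and 3819 ± 380 with LSD1 siRNA (SD, n = 3). These rose by 1.11 and 0.91 in the fit of single probe sets. The dim sets, at 0.48 and 0.16, did not pass. Which of them reads H2AJ alone was not tested.

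**Figure D3:**
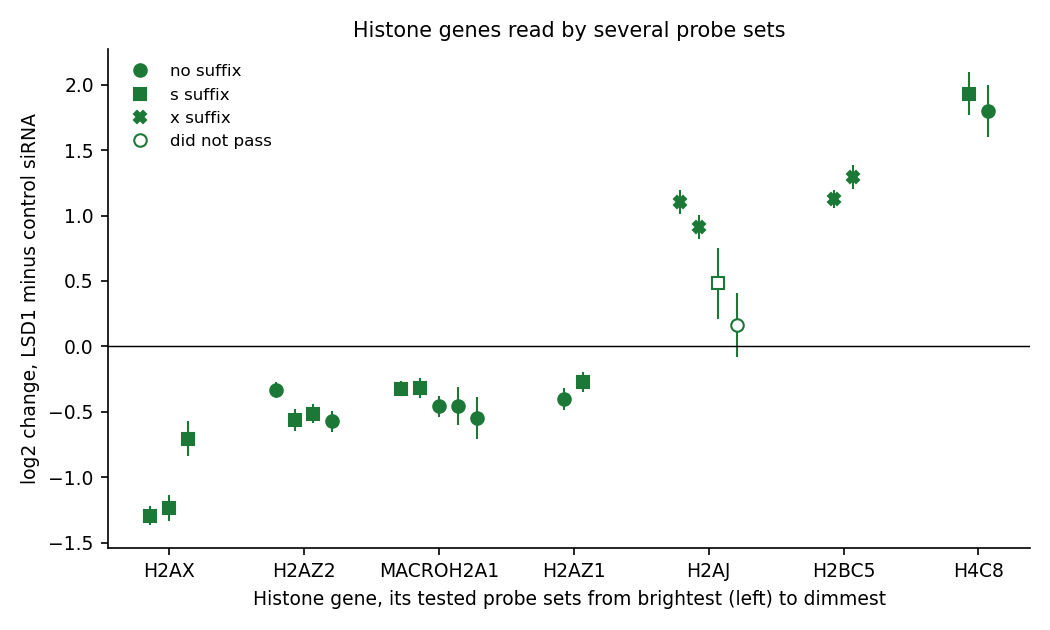
Log2 change (LSD1 siRNA minus control siRNA) of each tested probe set of the 7 histone genes that have more than 1, with the standard error as bars and the sets of a gene ordered from brightest to dimmest. Filled symbols passed the limma test; the 4 sets of H2AJ run from 1.11 to 0.16 and the sets of the other genes keep 1 direction.

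Another 28 probe sets carry several symbols with a histone gene among them, so they stand outside the genes above and name no single gene. They were looked at after the other values were seen, in a fit over all 32747 probe sets above the filter, of which 31.3% passed, 15.3% as higher and 16.0% as lower. The filter kept 22 of the 28, and 5 rose and 6 fell. The brightest set annotated to H4 genes alone, with 14 H4C symbols, had 4479, 4818 and 3204 on the control arrays and 1608, 1504 and 1697 on the LSD1 siRNA arrays. Its groups were far apart, with a log2 change of -1.35 ± 0.12 (SE; limma adjusted p = 8.40e-06), the opposite direction to the single-symbol sets of H4C8. H4C8 is itself among the 14 symbols, and which H4 genes give this signal was not tested. The control mean of this set was 4167, against 62.4 for the set used for H4C8. Of 3 tested sets annotated to H4 genes alone, 2 fell and 0 rose. The other fall was in a dim set, at -0.89 (limma adjusted p = 0.028), and the set at -0.22 did not pass. All 3 sets carry the same 14 symbols and are not separate observations. Of 5 sets annotated to several H2A genes, 2 rose and 0 fell. Both that rose, by 1.18 and 1.26, are annotated to the same genes, H2AC18 and H2AC19. Another set of this pair, dim and at -0.46, did not pass. The sets annotated to 6 other H2A genes, at -0.52 and -0.01, did not pass either. Of 4 tested sets annotated to several H2B genes, 3 rose, by 0.67, 0.97 and 1.102. These 3 are annotated to the same 5 genes, among them H2BC4 and H2BC6, and are not separate observations. The sets at 0.67 and 0.97 have the x suffix. Of 8 sets annotated to the H3.3 genes and 1 more symbol, 4 fell, and all 8 values lay between -0.32 and -0.02.

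Of the 33 histone genes tested, 4 passed with a rise of at least 1 log2 unit and 1 with a fall of as much, where 3.23% and 1.40% of all genes tested did. The replacement genes that fell were bright, with control means of 2664 to 26519, and the replication-dependent genes spanned control means from 22.9 to 5104.

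**Figure D4:**
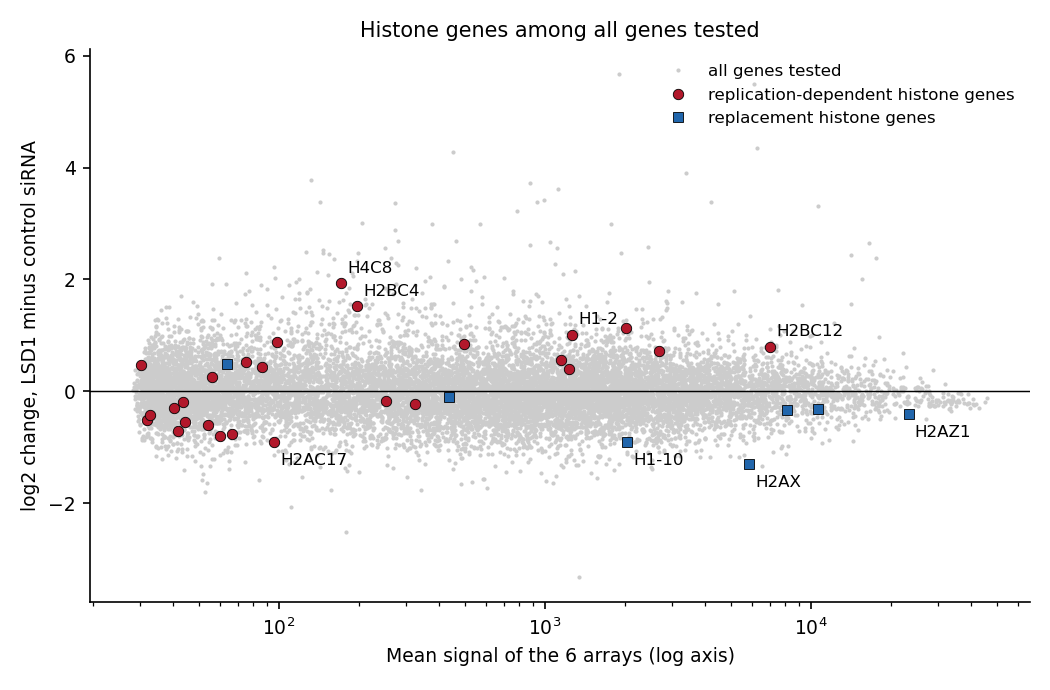
Log2 change (LSD1 siRNA minus control siRNA) against the mean signal of the 6 arrays (log axis) for all 13822 genes tested (grey), with replication-dependent histone genes as red circles and replacement histone genes as blue squares. The red circles lie on both sides of 0 at low signals and mostly above it at high signals, as H2BC12 does, and the blue squares at high signals lie below it. H2AJ is drawn by its dim set, and its bright x suffix sets, which rose by 1.11 and 0.91, are not drawn.

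Genes that process and transcribe histone mRNA were lower more often than higher. Of 35 tested genes of this list, 22 fell and 2 rose, which is 68.6% against the 41.0% of all genes, with a median log2 change of -0.27. The count that fell was 15 with the mean of all probe sets, 16 in the unmoderated test and 17 with no intensity trend. SLBP, which binds the stem-loop of replication-dependent histone mRNAs, had 5525, 5408 and 6151 with control siRNA and 4230, 4223 and 4242 with LSD1 siRNA. The LSD1 siRNA arrays lay close together below all controls, with a log2 change of -0.42 ± 0.06 (SE; limma adjusted p = 0.000211). NPAT, the coactivator that switches on these genes in S phase, had 1027, 967 and 943 against 664, 723 and 650, a log2 change of -0.52 ± 0.08 (SE; limma adjusted p = 0.000276). With the mean of all its probe sets NPAT stood at 0.04 (limma adjusted p = 0.820).

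Components of the U7 complex, which cuts the stem-loop mRNAs, were mixed. ZNF473 had 897, 897 and 920 against 505, 458 and 451, and fell by 0.92 on the log2 scale. LSM11 fell by 0.38, while LSM10 rose by 0.24. LSM10 lost its call without control array 3 (limma adjusted p = 0.103), LSD1 siRNA array 1 (0.127) and LSD1 siRNA array 2 (0.0858). The histone cleavage endonuclease CPSF3 changed by -0.33, its scaffold SYMPK by -0.60 and CASP8AP2, a partner of NPAT, by -0.48. Averaged over their probe sets SYMPK was at -0.33 (limma adjusted p = 0.115) and CASP8AP2 at -0.38 (limma adjusted p = 0.114).

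The cyclin E genes, whose kinase CDK2 phosphorylates NPAT, fell. CCNE2 had 4440, 4487 and 4334 against 2439, 2365 and 2374, with a log2 change of -0.88 ± 0.06 (SE; limma adjusted p = 3.94e-07). CCNE1 changed by -0.90 and CDK2 by -0.26, and with the mean of all probe sets these were -0.26 (limma adjusted p = 0.236) and -0.07 (limma adjusted p = 0.793). CDK2 also lost its call without control array 2 (limma adjusted p = 0.116), LSD1 siRNA array 1 (0.110) and LSD1 siRNA array 2 (0.0548). UPF1, which helps degrade histone mRNA, changed by -0.59. LSM1, which acts in the same decay, was the other gene that rose, at 0.30, although 1 control array lay among the LSD1 siRNA arrays, with limma adjusted p of 0.0716 to 0.141 without control array 2, control array 3, LSD1 siRNA array 2 or LSD1 siRNA array 3. HINFP, the factor that binds H4 promoters, was at 0.0042 and did not pass (limma adjusted p = 0.980).

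**Figure D5:**
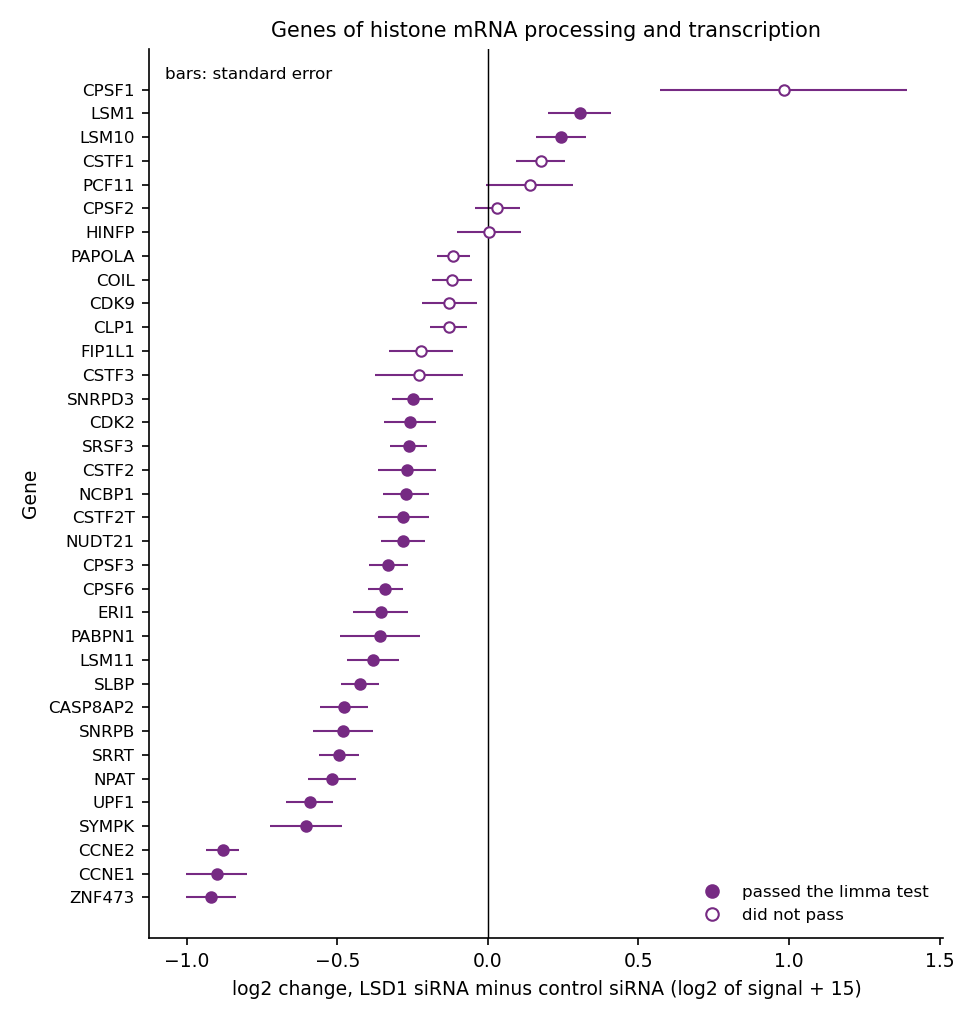
Log2 change (LSD1 siRNA minus control siRNA, on log2 of signal + 15) of the 35 tested genes of histone mRNA processing and transcription, as points with the standard error as bars. Filled points passed the limma test; ZNF473 stands lowest at -0.92, and LSM1 (0.30) and LSM10 (0.24) are the filled points above 0.

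Genes of S phase were mostly lower, the opposite direction to most of the replication-dependent histone genes that passed. Of 41 tested S phase genes, 39 fell and 0 rose, which is 95.1% against the 41.0% of all genes. Their median log2 change was -0.86, and POLR1B (-0.17) and MRPL36 (0.14) did not pass. The S phase list holds 3 of the processing genes, SLBP, CCNE2 and CASP8AP2, and 2 of the histone chaperone genes, NASP and CHAF1B. Fewer cells in S phase and less RNA per cell cannot be told apart in these bulk samples, and the part of the S phase fall in the histone values was not tested. Of 29 tested histone chaperone genes, 17 fell, and ASF1A (0.36) and ANP32E (0.25) rose, which is 65.5% against the 41.0% of all genes. ANP32E had a limma adjusted p of 0.0673 without control array 2 and 0.0819 without LSD1 siRNA array 2.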

How the data were processed

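RNA of 3 control siRNA and 3 LSD1 siRNA samples (2.5 ug of total RNA each, per the labels) was measured on 6 arrays. The authors deposited linear signal intensity values, 1 column per array. The tools named, per the submitters' processing notes, are MAS5, GCOS and version 1.1 of Affymetrix Expression Console, with no order given, and genome build and annotation are not given in the sources used here. The values carry no detection calls, and scaling to a common mean removes differences in total RNA per cell. Arrays have no read depth, so their number limits the precision (median standard error of a log2 change 0.11).

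Names came from the platform annotation: 41097 probe sets have 1 symbol, 1801 several and 11777 are not listed. All 81 histone sets matched RefSeq by gene identifier. Values were taken as log2(signal + 15). For each gene the brightest set, by the mean of these values, was used, with x suffix sets used only where there was no other. Groups were compared over all genes with limma 3.58.1 in R 4.3.3 (lmFit, eBayes with an intensity trend, two-sided, Benjamini-Hochberg at 0.05), which was tested on simulated data. An exact permutation test of 3 against 3 arrays cannot go below 0.1. Figures used matplotlib 3.10.9.

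The genes, lists and tests were chosen with earlier results of these data known. Named are KDM1A, every tested replacement gene, the replication-dependent genes past the threshold (up to 10 each way), SLBP, NPAT, CASP8AP2, LSM10, LSM11, ZNF473, CPSF3, SYMPK, CCNE1, CDK2, HINFP and the 4 processing genes with the smallest p. Any further gene in the text was picked with its values known. Same-numbered replicates did not deviate together (correlations of 0.0038 to 0.0276), so the numbers were not taken as pairs. Alternatives covered the constant (1 and 60), the filter (none, 60th percentile), median centring, quantile normalization, a replicate block, the trend and moderation of the variance, the gene summary, suffixed probe sets and leaving out each array.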

Additional observations from a re-analysis of the deposited data

How the results depend on the processing

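Counts of higher and lower histone genes (10 and 7) were the same with a constant of 1 or 60, no filter, quantile normalization and the replicate block, which changed no call of a histone gene (with the block 10 genes were higher and 7 lower, with the same 17 passing). Without x, s and a suffix probe sets 21 histone genes could be tested, of which 4 were higher (H1-2, H2BC4, H2BC12 and H4C8) and 4 lower (H2AC17, H2AZ1, H2AZ2 and MACROH2A1). Of these, 4 higher and 1 lower were replication-dependent and 3 lower were replacement genes, and 4 single probe sets were higher and 7 lower. Median centring gave 10 higher and 8 lower, with H3C3 added. At the 60th percentile filter 9 were higher and 5 lower, as H2AC17, H3C2 and H2BC21 were not tested, and 0 replication-dependent genes were lower. With the mean of all probe sets 4 replication-dependent genes were lower, as H1-4 and H3C3 also passed, and 1 replacement gene, H2AJ, was higher (0.67, adjusted p = 0.000183). With no intensity trend 8 were lower, with H1-4 added, and in the unmoderated test 7 were lower, with H1-4 and without H2AZ1 (adjusted p = 0.0517). The 2 higher processing genes became 0 with no filter, no intensity trend, the unmoderated test and the mean of all probe sets. Leaving out each array in turn gave 10 higher and 6 to 8 lower histone genes, 1 to 3 lower replication-dependent genes and 0 to 2 higher and 18 to 21 lower processing genes. Signs changed for NPAT with the mean of all probe sets (0.0387), for H3-3A without control array 1 (0.1397, and down to -0.2751 without control array 2), and for HINFP without control array 2 (-0.0038), control array 3 (-0.0011), LSD1 siRNA array 1 (-0.0285) and LSD1 siRNA array 2 (-0.036, and up to 0.077 without LSD1 siRNA array 3), none of which passed under those settings. In the fit of every probe set, added after seeing the data, 14 histone sets were higher and 17 lower. Of the 16 histone genes that did not pass, 13 had mean signals under 100.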
